A study of Rattus norvegicus with 170 samples.

Results

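The 10 genes described here encode parts, activators, inhibitors and targets of the anaphase-promoting complex (APC/C), the ubiquitin ligase that ends mitosis. They were taken by symbol from a list: *Cdc20*, *Fzr1*, *Ube2c*, *Ube2s*, *Fbxo5* and *Pttg1*, called non-core here, and the core subunits *Cdc27*, *Cdc16*, *Cdc23* and *Anapc5*. All 10 were found among the 24113 genes of the table, each as 1 transcript, and none was dropped for a low value. Islets from wild type, male Sprague Dawley rats 8 weeks old were cultured for 48 h in 5.5 mM glucose with 0.1% DMSO, the vehicle, or with 3 µM GNF4877, a small molecule under study for β-cell proliferation. Dispersed cells were captured on Fluidigm C1 chips, which lyse each cell in its own chamber, and their polyadenylated RNA was sequenced, giving 86 DMSO cells and 84 GNF4877 cells. Values are RPM, the reads of a transcript per 1000000 mapped reads of the cell, so they are not divided by transcript length and levels are not compared between genes. The labels name no animal, culture or second chip. Each treatment was therefore taken as 1 sample, so its cells are not replicates and no test was made. Treatment, chip and sequencing lane cannot be told apart. Shares carry exact Clopper-Pearson 95% intervals, which hold the error of counting cells and nothing else.

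The APC/C attaches ubiquitin to proteins that must disappear for a cell to separate its chromosomes and leave mitosis, among them securin and cyclin B1. Its core subunits form a scaffold that is kept through the cell cycle, while the coactivators *Cdc20* and *Fzr1* (Cdh1) bring in substrates at different times, the conjugating enzymes *Ube2c* and *Ube2s* start and lengthen the ubiquitin chains, and *Fbxo5* (Emi1) blocks the ligase until mitosis. Most β-cells of an adult islet are not dividing, and cells outside the cycle keep the core complex and its *Fzr1* form.

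Cells with *Ins1*, an insulin gene, at 1000 RPM or more (Ins1-high cells) were divided by *Ccnb1*, which encodes cyclin B1, a target of the APC/C that is transcribed toward mitosis. Of 59 Ins1-high GNF4877 cells, 40 had no *Ccnb1* read, 8 had a value above 0 and under 10 RPM, and 11 had 10 RPM or more and are called *Ccnb1*-positive. The lowest value inside that threshold was 19.1 RPM in GNF4877 cell 17, and the highest outside it was 6.85 RPM in GNF4877 cell 95. Of 78 Ins1-high DMSO cells, 77 had no *Ccnb1* read and 1, DMSO cell 46, had 49.4 RPM. Median mapped reads were 1583250 in the *Ccnb1*-positive GNF4877 cells, 1381746 in the *Ccnb1*-0 GNF4877 cells and 1240658 in the *Ccnb1*-0 DMSO cells, with ranges of 661387 to 2171567, 324416 to 2011484 and 241604 to 2499138. The median number of genes with a read ran the other way between the treatments, at 7527, 6913 and 8932. *Ins1* had medians of 36796, 18348 and 35965 RPM in these 3 groups.

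The main contrast was between the sets. From *Ccnb1*-0 to *Ccnb1*-positive GNF4877 cells all 6 non-core genes were higher by 2-fold or more, with a median log2 ratio of 4.19, and 0 of the 4 core subunits were, with a median of 0.48. A log2 ratio here is log2((mean RPM + 1)/(mean RPM + 1)), which understates the change of a gene with few reads. Of the 13041 genes with a mean of 1 RPM or more in either group, 18.2% were higher by 2-fold or more and 25.2% were lower by 2-fold or more, and their median was -0.10. With *Fbxo5*, which had no read in the lower group, set at its bound, the non-core median was 4.96. Of the 6 non-core genes 5 stayed past 2-fold under every alternative setting, *Fzr1* being the exception. Of the 4 core subunits 1, *Anapc5*, kept its sign and its side of 2-fold under every setting, and 3 did not. With any *Ccnb1* above 0 as positive 1 of the 4, *Cdc23*, was higher by 2-fold or more. Without cells with 1000 RPM or more of another islet hormone gene it was *Cdc27*. With a pseudocount of 10 RPM the ratios of *Cdc20*, *Fzr1*, *Ube2c*, *Ube2s*, *Fbxo5* and *Pttg1* were 4.83, 1.53, 4.05, 1.84, 1.83 and 2.65, and with 0.1 RPM those of *Cdc20*, *Fzr1*, *Ube2c* and *Fbxo5* at 9.48, 3.88, 6.96 and 8.0004. Since *Ccnb1* chose the cells, its own difference is not a result.

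**Figure D1:**
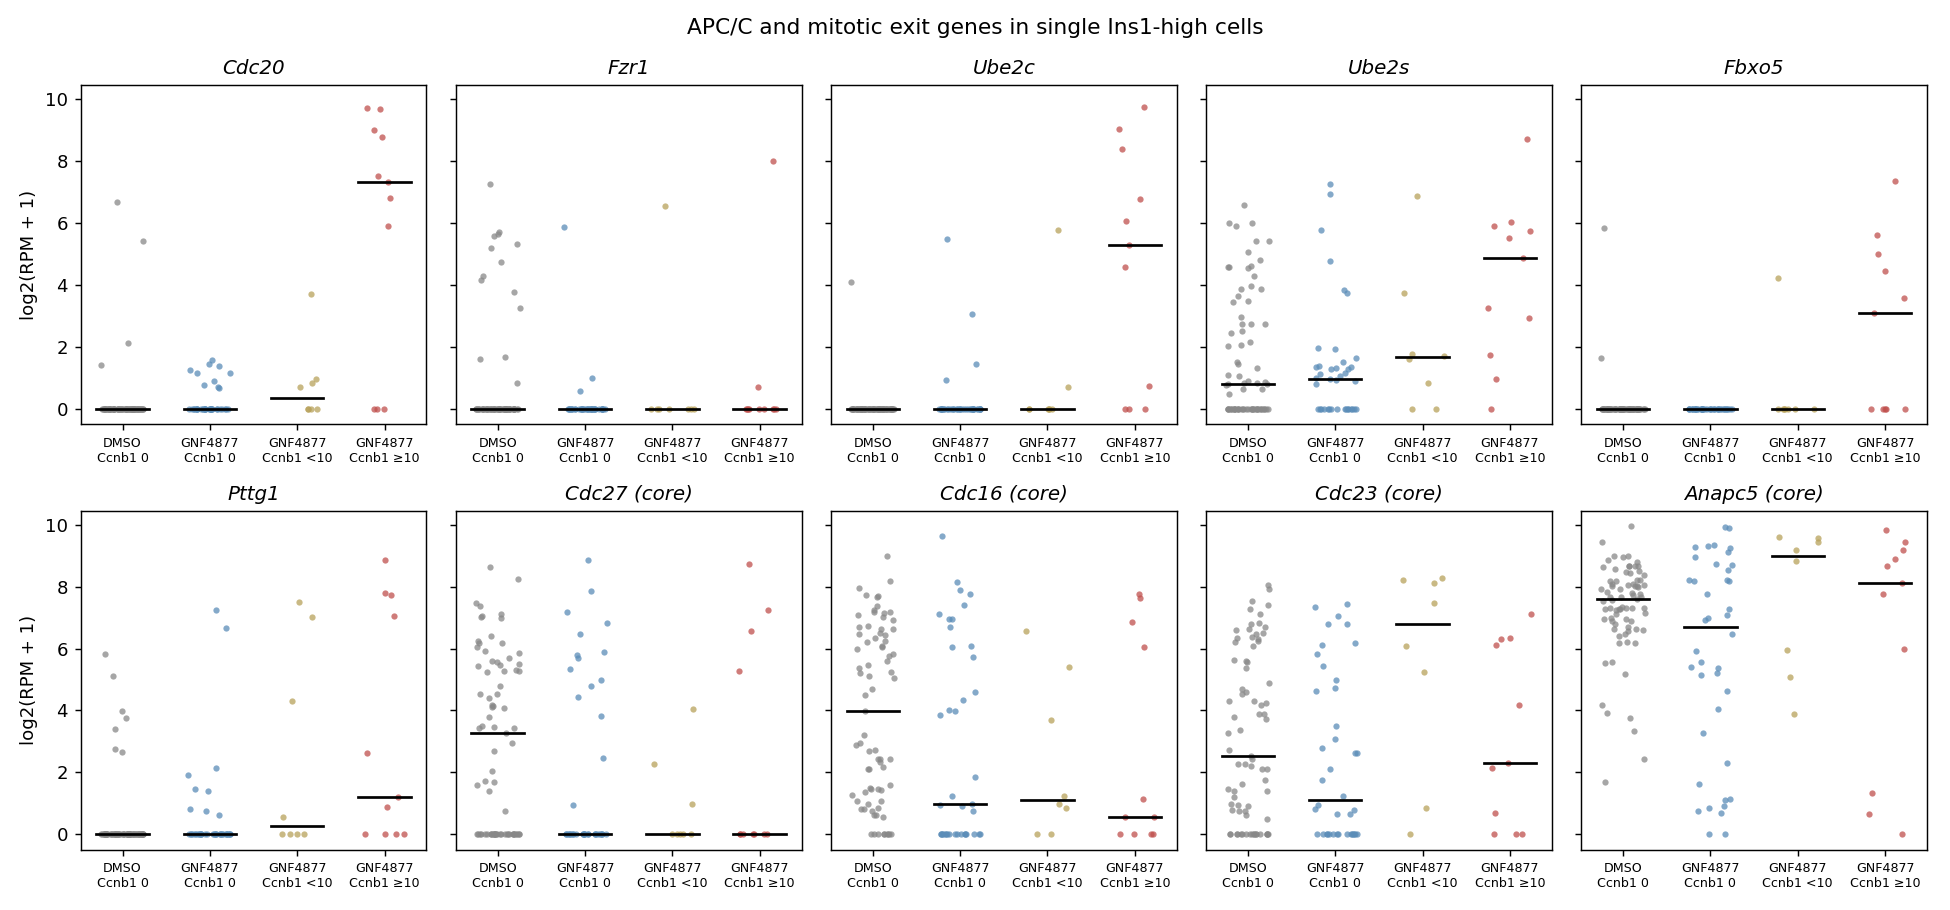
Level of each of the 10 genes, as log2(RPM + 1), in single Ins1-high cells. Each point is a cell, black lines are medians, and columns are *Ccnb1*-0 DMSO cells (77), *Ccnb1*-0 GNF4877 cells (40), GNF4877 cells with *Ccnb1* above 0 and under 10 RPM (8) and *Ccnb1*-positive GNF4877 cells (11). *Cdc20* and *Ube2c* sit high in most cells of the last column and near 0 in nearly all cells of the first 2 columns, while the core subunits overlap between columns, with *Cdc27* and *Cdc16* lower at their highest and *Cdc23* higher at its median in the column of 8 cells.

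*Cdc20*, the coactivator that starts anaphase, had 0 RPM in the lowest, 158 RPM in the median and 843 RPM in the highest of the *Ccnb1*-positive GNF4877 cells. Its lowest, median and highest values were 0, 0 and 1.97 RPM in the *Ccnb1*-0 GNF4877 cells and 0, 0 and 99.9 RPM in the *Ccnb1*-0 DMSO cells. The 8 *Ccnb1*-positive cells that held *Cdc20* reads, at 58.7 RPM or more, were all above every *Ccnb1*-0 GNF4877 cell, and the other 3, cells 63, 78 and 96, had none. The log2 ratio was 7.78, rank 4 from the top of the 13041 genes, 5.61 when log2(RPM + 1) was averaged over cells and 6.997 where any *Ccnb1* above 0 counted as positive. *Cdc20* was read in 8 of 11 *Ccnb1*-positive cells (72.7%, 39.03% to 93.98%) and in 10 of 40 *Ccnb1*-0 cells (25%, 12.7% to 41.2%), where no cell held more than 3 reads. After each cell was thinned to 100000 reads, the shares were 8 of 11 and 1 of 39 (2.56%, 0.0649% to 13.5%).

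*Fzr1*, the coactivator that takes over from *Cdc20* late in mitosis and keeps the ligase active in resting cells, did not share this pattern in single cells. In the *Ccnb1*-positive GNF4877 cells its lowest and median values were 0 RPM and its highest was 253 RPM, in cell 16, with 0.632 RPM in cell 40 and no read in the other 9. That cell held 99.8% of the group's summed *Fzr1*. The log2 ratio over *Ccnb1*-0 GNF4877 cells was 3.28 and turned to -1.22 without cell 16. It was 4.53 without *Ccnb1*-0 cell 26, which held 57.3 RPM of the gene, 0.60 when log2(RPM + 1) was averaged over cells and 2.48 where cells with any *Ins1* were used. *Fzr1* was read in 2 of 11 *Ccnb1*-positive cells (18.2%, 2.28% to 51.8%), 3 of 40 *Ccnb1*-0 GNF4877 cells (7.5%, 1.57% to 20.4%) and 14 of 77 *Ccnb1*-0 DMSO cells (18.2%, 10.3% to 28.6%), and these intervals overlap.

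*Ube2c* encodes the conjugating enzyme that places the first ubiquitins on APC/C substrates. In the *Ccnb1*-positive GNF4877 cells it ran from 0 through a median of 38.001 to 863 RPM, against 0, 0 and 43.3 RPM in *Ccnb1*-0 GNF4877 cells and 0, 0 and 16.2 RPM in *Ccnb1*-0 DMSO cells. The groups overlapped, since 4 *Ccnb1*-positive cells held less than 10 RPM and 1 *Ccnb1*-0 cell, GNF4877 cell 87, held 43.3 RPM. The log2 ratio was 6.26, rank 23, and was 5.56 without *Ccnb1*-positive cell 16 and 7.16 without cell 87. It was 4.33 with log2(RPM + 1) averaged, 5.52 with any *Ccnb1* above 0 as positive and 5.57 after thinning to 100000 reads. Reads of *Ube2c* were found in 8 of 11 *Ccnb1*-positive cells (72.7%, 39.03% to 93.98%), 4 of 40 *Ccnb1*-0 GNF4877 cells (10%, 2.79% to 23.7%) and 1 of 77 *Ccnb1*-0 DMSO cells (1.30%, 0.0329% to 7.02%). The GRCr8 annotation names 4 pseudogenes each for *Ube2c* and *Ube2s* and 1 for *Fbxo5*, so the placement of reads on these genes is uncertain.

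*Ube2s*, whose enzyme lengthens the chains, also had reads in most *Ccnb1*-0 cells of both treatments. Its lowest, median and highest values were 0, 28.007 and 416 RPM in *Ccnb1*-positive GNF4877 cells, 0, 0.958 and 152 RPM in *Ccnb1*-0 GNF4877 cells and 0, 0.750 and 93.9 RPM in *Ccnb1*-0 DMSO cells. Most cells of the 3 groups overlapped, and the highest value lay in a *Ccnb1*-positive cell. The log2 ratio was 2.50, with 1.31 without cell 16 and 1.63 when values were rescaled to the reads on listed transcripts. It was 3.08 without *Ccnb1*-0 cell 12 and 2.77 with log2(RPM + 1) averaged. *Ube2s* was read in 10 of 11 (90.9%, 58.7% to 99.8%), 24 of 40 (60%, 43.3% to 75.1%) and 43 of 77 cells (55.8%, 44.1% to 67.2%) of the same groups, mostly at a few reads in the *Ccnb1*-0 cells. Values of 10 RPM or more were found in 6 of 11, 6 of 40 and 18 of 77 cells.

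*Fbxo5* encodes the inhibitor that holds the ligase off during S and G2 phases. It ran from 0 through 7.45 to 162 RPM in the *Ccnb1*-positive GNF4877 cells, and none of the 40 *Ccnb1*-0 GNF4877 cells held a read, which the exact interval limits to a share of 8.81%. The 6 positive cells with a read (54.5%, 23.4% to 83.3%) thus lay above all *Ccnb1*-0 GNF4877 cells. Set against 3 reads over the 40 cells together (0.0577 RPM), the mean of 25.5 RPM was at least 442-fold higher, and at least 205-fold higher without cell 36. The log2 ratio was 4.73 with the pseudocount and 3.68 without cell 36, which held the 162 RPM, 2.64 with log2(RPM + 1) averaged and 4.06 with any *Ccnb1* above 0 as positive.

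*Pttg1* encodes securin, the inhibitor of separase whose destruction by the APC/C frees the sister chromatids. Its lowest, median and highest values were 0, 1.31 and 461 RPM in the *Ccnb1*-positive GNF4877 cells, 0, 0 and 151 RPM in the *Ccnb1*-0 GNF4877 cells and 0, 0 and 55.8 RPM in the *Ccnb1*-0 DMSO cells. In the *Ccnb1*-positive group 4 cells, 16, 30, 36 and 40, held 132 RPM or more and the other 7 held 5.24 RPM or less. The log2 ratio was 3.65, 2.95 without cell 16, 4.62 without *Ccnb1*-0 cell 12, which held the 151 RPM, and 2.71 with log2(RPM + 1) averaged. *Pttg1* was read in 7 of 11 (63.6%, 30.8% to 89.1%), 9 of 40 (22.5%, 10.8% to 38.5%) and 7 of 77 cells (9.09%, 3.73% to 17.8%).

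**Figure D2:**
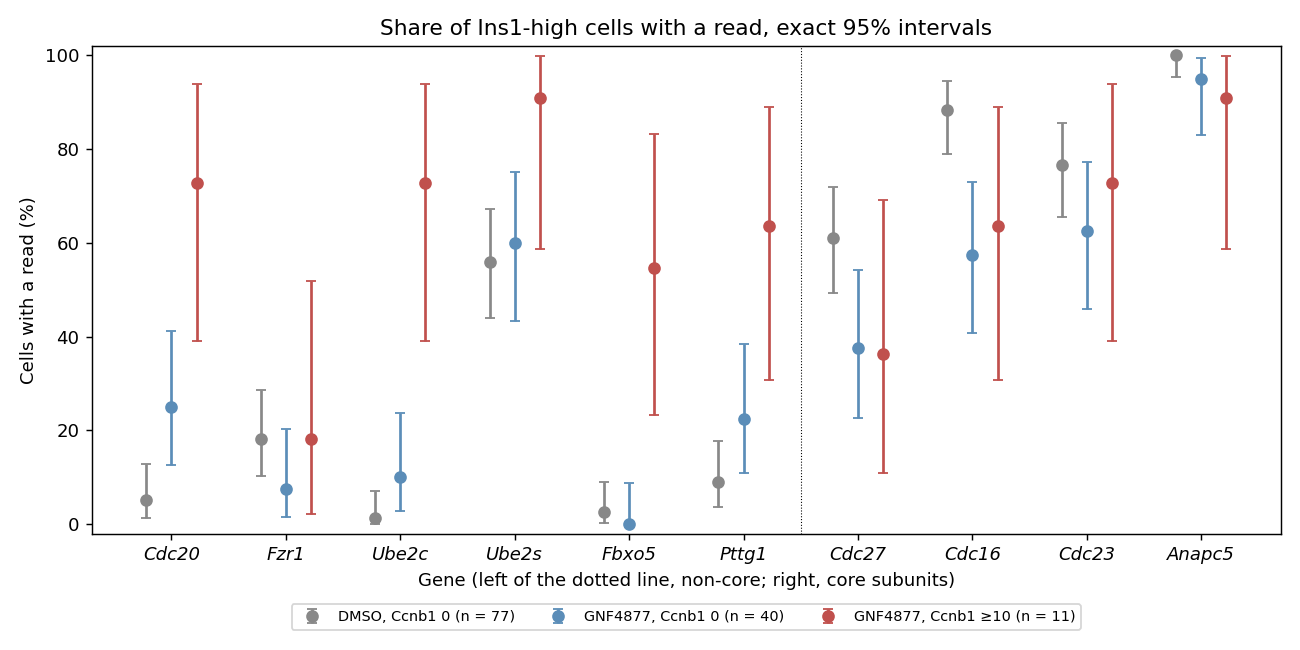
Share of Ins1-high cells with any read of each gene, with exact Clopper-Pearson 95% intervals, in *Ccnb1*-0 DMSO cells (77), *Ccnb1*-0 GNF4877 cells (40) and *Ccnb1*-positive GNF4877 cells (11). The interval of the *Ccnb1*-positive cells lies above that of the *Ccnb1*-0 GNF4877 cells for *Ube2c* and *Fbxo5* and overlaps it for the other 8 genes. The share of all genes with intervals apart was not computed, so no result about these genes is read from this.

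The core subunits were read in cells of every group. *Anapc5*, a scaffold subunit, had lowest, median and highest values of 0, 275 and 907 RPM in *Ccnb1*-positive GNF4877 cells, 0, 103 and 966 RPM in *Ccnb1*-0 GNF4877 cells and 2.26, 195 and 991 RPM in *Ccnb1*-0 DMSO cells. Its means were 328, 225 and 223 RPM, and the log2 ratio of *Ccnb1*-positive over *Ccnb1*-0 GNF4877 cells was 0.54. The groups covered nearly the same range, and 3 *Ccnb1*-positive cells, 25, 31 and 78, held 1.51 RPM or less.

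*Cdc27*, *Cdc16* and *Cdc23* encode subunits built of tetratricopeptide repeats, the arm of the complex on which the coactivators dock. *Cdc27* had lowest, median and highest values of 0, 0 and 427 RPM in *Ccnb1*-positive and 0, 0 and 466 RPM in *Ccnb1*-0 GNF4877 cells, and its log2 ratio of 0.92 was -0.25 without cell 16, which held 60.3% of the group's *Cdc27*, 1.48, past 2-fold, without *Ccnb1*-0 cell 46, and 0.19 with any *Ccnb1* above 0 as positive. For *Cdc16* the values were 0, 0.477 and 214 RPM against 0, 0.963 and 797 RPM, with a log2 ratio of -0.19, 0.33 without *Ccnb1*-0 cell 74 and 0.51 with *Ins1* of 10000 RPM or more. For *Cdc23* they were 0, 3.94 and 137 RPM against 0, 1.16 and 174 RPM, with a log2 ratio of 0.42, and -0.06 without cell 40. The groups overlapped for each of these genes, each had cells at 0 in both, and the highest value of each lay in a *Ccnb1*-0 cell. The *Cdc23* ratio was 1.60 where any *Ccnb1* value above 0 counted as positive, and the cells between 0 and 10 RPM had a median of 122 RPM of *Cdc23*. It was -0.68 where cells with any *Ins1* were used.

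*Ccnb1*-0 cells of both treatments were compared next, to describe cells without *Ccnb1* under each treatment. The *Ccnb1*-0 GNF4877 cells are the same as in the comparison above, so the 2 comparisons are not independent. Among the non-core genes 1 of 6, *Pttg1*, was higher by 2-fold or more in GNF4877 cells, beside 9.53% of 13774 genes, and 2 of 6, *Cdc20* and *Fzr1*, were lower, beside 21.7%. None of the core subunits passed 2-fold. Each of the 10 ratios changed sign or its side of 2-fold under at least 1 alternative setting. The median log2 ratio was -0.30 for the non-core and -0.03 for the core genes, and -0.16 over the 13774 genes. The non-core median was -0.47 with *Fbxo5* at its bound. *Fbxo5* did not reach a mean of 1 RPM in either group and the other 9 members did.

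*Cdc20* and *Pttg1* passed 2-fold through single cells, and *Fzr1* stayed past it without any 1 cell. The *Cdc20* mean was 0.295 RPM in GNF4877 and 1.90 RPM in DMSO cells, where 1 cell, DMSO cell 36, held 68.3% of it, and the log2 ratio of -1.16 was -0.32 without that cell. The *Pttg1* ratio of 1.44 was 0.47 without GNF4877 cell 12. The *Fzr1* ratio was -1.49, from 1.47 against 5.95 RPM, and ran from -2.74 without GNF4877 cell 26 to -1.03 without DMSO cell 75, but was -0.58 when log2(RPM + 1) was averaged over cells and -0.92 where cells with any *Ins1* were used, which gave -1.78 for *Cdc20*. For *Ube2c* it was 0.95, 0.05 without GNF4877 cell 87 and 1.22, past 2-fold, without DMSO cell 60. It also passed 2-fold with *Ins1* of 10000 RPM or more (1.10), with any *Ins1* (1.21), after thinning (1.32) and with a pseudocount of 0.1 RPM (2.21). For *Ube2s* it was 0.22, -0.36 without GNF4877 cell 12 and 1.004 when values were rescaled to the reads on listed transcripts. With a pseudocount of 10 RPM, and with log2(RPM + 1) averaged, none of the 6 passed 2-fold, and the averaging gave 0.070 for *Cdc20*, 0.22 for *Pttg1* and 0.22 for *Ube2c*. With a pseudocount of 0.1 RPM *Cdc20* was -2.34 and *Fbxo5* -3.09, and with *Ins1* of 10000 RPM or more *Pttg1* was 2.18. *Fbxo5* had 0 reads against a mean of 0.754 RPM, at least 13.1-fold lower, but DMSO cell 60 alone held 96.3% of that mean, and the ratio of -0.81 was -0.04 without it.

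The core subunits were each read in a smaller share of the *Ccnb1*-0 GNF4877 cells than of the *Ccnb1*-0 DMSO cells, while their means differed by less than 2-fold. *Cdc16* had means of 61.7 RPM in GNF4877 and 57.2 RPM in DMSO and was read in 23 of 40 (57.5%, 40.9% to 72.96%) against 68 of 77 cells (88.3%, 78.97% to 94.5%), with intervals that do not overlap. The share of all genes with intervals apart was not computed, so no result about *Cdc16* is read from this. *Cdc27*, at 33.5 and 35.2 RPM, was read in 15 of 40 (37.5%, 22.7% to 54.2%) against 47 of 77 cells (61.04%, 49.2% to 71.95%). *Cdc23*, at 26.2 and 36.1 RPM, was read in 25 of 40 (62.5%, 45.8% to 77.3%) against 59 of 77 cells (76.6%, 65.6% to 85.5%), and *Anapc5* in 38 of 40 against 77 of 77. When log2(RPM + 1) was averaged over cells in place of RPM, *Anapc5* (-1.53 in place of 0.01) and *Cdc16* (-1.03 in place of 0.11) passed 2-fold, while the median of all genes was -0.49 in place of -0.16 and 25.6% were lower by 2-fold or more. With *Ins1* of 10000 RPM or more, *Cdc16* was -0.69 and the core median -0.43, and with any *Ins1*, *Cdc23* was 0.36 in place of -0.45. The ratios near 0 also changed sign without single cells: *Cdc27* from -0.07 to 0.14 without DMSO cell 16, *Cdc16* to -0.41 without GNF4877 cell 74 and *Anapc5* to -0.11 without GNF4877 cell 80. A lower share of cells with a read in GNF4877 was found for 81.3% of the 13774 genes, so the 4 of 4 core subunits were near this background. At 100000 reads per cell *Cdc16* was read in 16 of 39 (41.03%, 25.6% to 57.9%) and 50 of 75 cells (66.7%, 54.8% to 77.1%), with intervals that overlap.

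Of the non-core genes, *Cdc20*, *Ube2c*, *Ube2s* and *Pttg1* had the higher share in *Ccnb1*-0 GNF4877 cells and *Fzr1* and *Fbxo5* the lower. At the equal depth the order held for *Ube2c* (3 of 39 against 1 of 75 cells), *Fzr1* and *Fbxo5* and turned for *Cdc20* (1 of 39 against 3 of 75), *Ube2s* (8 of 39 against 23 of 75) and *Pttg1* (2 of 39 against 6 of 75). No order is read from these shares.

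Within the *Ccnb1*-positive cells the non-core genes came in unequal combinations. Cell 16 held all 6 at 10 RPM or more, with a sum of 2858 RPM, and cells 36 and 40 held 5 each. Cell 30 held 4, cells 17 and 19 held 3 each and cell 25 held 2. Cells 31, 63 and 96 held 1 each, *Cdc20*, *Ube2s* and *Ube2c* in that order. Cell 78 held none, although its *Ccnb1* was 392 RPM. It had the fewest mapped reads of the group, 661387, and the fewest genes with a read, 4294, and the highest *Ins1*, 184281 RPM. The part of depth in its lack of reads was not tested. Of the 40 *Ccnb1*-0 GNF4877 cells 31 held no non-core gene at 10 RPM and 8 held 1, while cell 12 held *Ube2s* and *Pttg1*.

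The 3 cells with the most *Ccnb1* also had the highest non-core sums. Cells 16, 30 and 40, with *Ccnb1* of 912, 876 and 856 RPM, had 816, 433 and 843 RPM of *Cdc20*, 863, 336 and 520 RPM of *Ube2c* and 461, 221 and 212 RPM of *Pttg1*. Below them the order did not hold: cell 36, at 200.0 RPM of *Ccnb1*, had a non-core sum of 587 RPM, against 213 RPM in cell 25 and 121 RPM in cell 31, at 553 and 425 RPM. Cell 17 had 508 RPM of *Cdc20* and 108 RPM of *Ube2c* at 19.1 RPM of *Ccnb1*. *Mki67*, which encodes the proliferation marker Ki67 and was chosen after its values were seen, was 824 RPM in that cell. Over the *Ccnb1*-positive cells *Mki67* ran from 0 RPM in cell 78 to 2303 RPM in cell 36. Cells 31, 19 and 25 held 0.573, 2.73 and 4.59 RPM of it. Its highest values in *Ccnb1*-0 GNF4877 cells were 318 RPM in cell 87 and 120 RPM in cell 11.

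**Figure D3:**
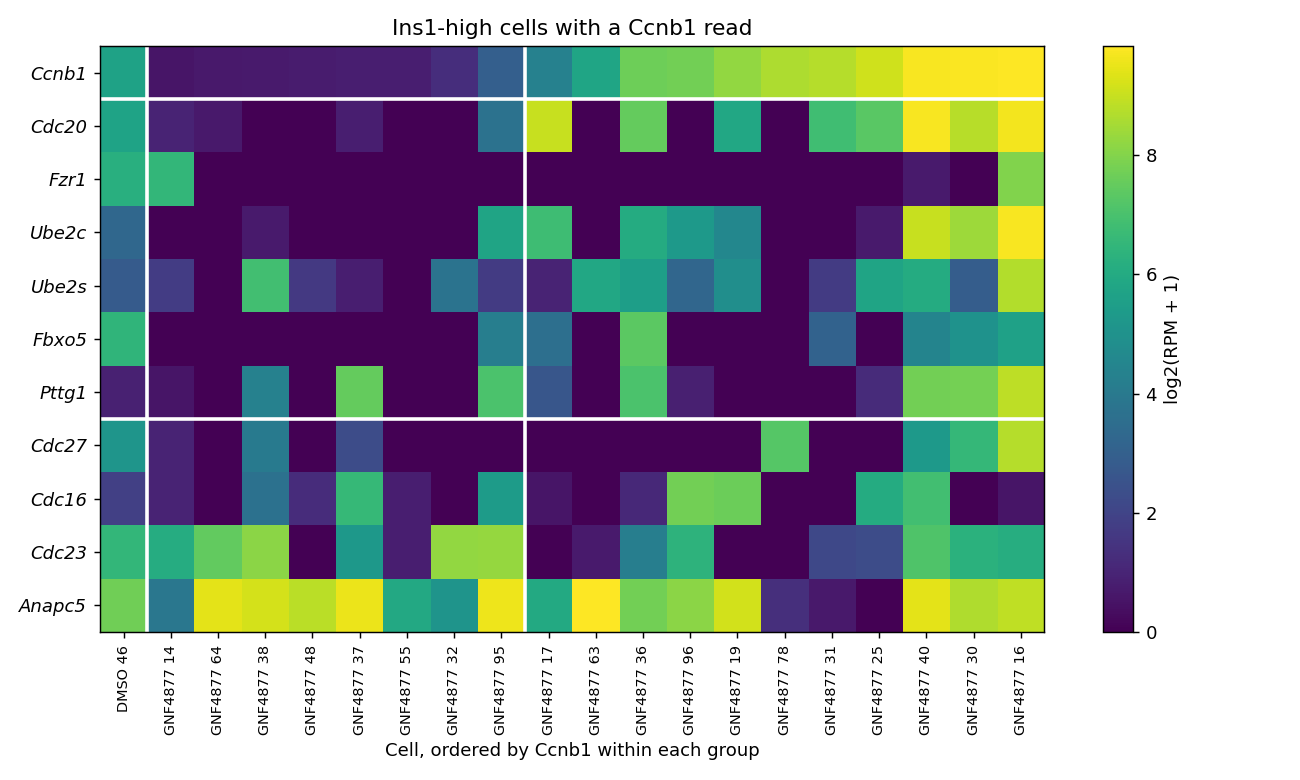
Level of *Ccnb1* and of the 10 genes, as log2(RPM + 1) by colour, in each Ins1-high cell with a *Ccnb1* read: DMSO cell 46, 8 GNF4877 cells with *Ccnb1* under 10 RPM and 11 with 10 RPM or more, in order of *Ccnb1* within each group. The 3 cells at the right, with the most *Ccnb1*, hold 4 to 6 of the non-core genes at 10 RPM or more, and cell 78 holds none.

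The 8 GNF4877 cells with *Ccnb1* between 0 and 10 RPM were mostly like the *Ccnb1*-0 cells for *Cdc20*, *Ube2c* and *Fbxo5*. Of these cells 7 held *Cdc20* of 0.955 RPM or less, *Ube2c* of 0.625 RPM or less and no *Fbxo5* read. The exception was cell 95, nearest to the threshold, with 11.98 RPM of *Cdc20*, 53.1 RPM of *Ube2c*, 17.7 RPM of *Fbxo5* and 130 RPM of *Pttg1*. *Pttg1* was also high without the other genes in cell 37, at 180 RPM, and *Fzr1* in cell 14, at 91.2 RPM. Another islet hormone gene reached 1000 RPM in 2 of the 8 cells. These were *Sst* in cell 37, at 15778 RPM, and *Ppy* in cell 38, at 2293 RPM.

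DMSO cell 46, the 1 Ins1-high DMSO cell with *Ccnb1*, had another mixture. It held 51.1 RPM of *Cdc20*, 73.2 RPM of *Fzr1* and 85.5 RPM of *Fbxo5*, but 8.81 RPM of *Ube2c*, 6.17 RPM of *Ube2s* and 0.881 RPM of *Pttg1*. Its *Fbxo5* was above that of 10 of the 11 *Ccnb1*-positive GNF4877 cells and its *Cdc20* was below that of all 8 with reads. Its 4 mesenchymal markers summed to 8491 RPM, with *Col1a1* at 3470 RPM, against at most 0.953 RPM in any *Ccnb1*-positive GNF4877 cell, and its *Ins1* was 11547 RPM. Ports were checked for single cells by microscopy, and the part of other cells' RNA in these values was not tested.

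Correlations of log2(RPM + 1) over the 59 Ins1-high GNF4877 cells, which share a chip and differ in depth, are given as descriptions. The 5 genes most like *Cdc20*, among 10820 genes read in 10 or more of the cells, were *Cdca3* (r = 0.94), an APC/C substrate, the checkpoint kinase gene *Bub1* (0.91), *Tacc3* (0.90), whose protein stabilises spindle microtubules, *Arhgap11a* (0.87) and *Cenpt* (0.87), which encodes a kinetochore protein. For the core subunit *Cdc27* the genes included *Sass6* (0.65), *Dcxr* (0.48), *Dlg2* (0.47) and *Npy1r* (0.47). Among the members, *Cdc20* had r = 0.84 with *Fbxo5*, 0.79 with *Ube2c*, 0.60 with *Pttg1*, 0.43 with *Ube2s* and 0.28 with *Fzr1*. With the core subunits its r ran from 0.01 for *Cdc16* to 0.18 for *Cdc23*.

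Other genes of the pathway were described in the same contrast of *Ccnb1*-positive over *Ccnb1*-0 GNF4877 cells. Of 9 other APC/C subunits measured, 2 were higher by 2-fold or more and 1 was lower, near the 18.2% and 25.2% of all genes, with a median log2 ratio of 0.28, which was -0.0018 without cell 16. The highest were *Anapc15* (1.61), which helps release the checkpoint complex, and *Anapc4* (1.24), and the lowest *Anapc2* (-0.54), the cullin subunit, and *Anapc1* (-1.03), the largest scaffold. *Anapc15* stayed past 2-fold without any 1 cell, but *Anapc4* was 0.73 without cell 19, *Anapc2* was -1.28 without cell 16 and 0.26 without *Ccnb1*-0 cell 56, and *Anapc1* was -0.75 without *Ccnb1*-0 cell 22. *Anapc1* was also 0.61 when cells with any *Ins1* were used.

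The spindle checkpoint holds *Cdc20* back until chromosomes are attached, and 7 of its 9 measured genes were higher by 2-fold or more, beside 18.2% of all genes, and none was lower, with a median of 3.71. That median is *Mad1l1*, named after its values were seen, which was 0.72 without cell 17, and without single cells the median ran from 3.04, without cell 40, to 3.84. *Bub1* had the highest ratio (6.61), from 0.279 to 124 RPM, then *Bub1b* (4.79), which was 3.65 without *Ccnb1*-positive cell 17 and 6.31 without *Ccnb1*-0 cell 18. *Mad2l1bp* (0.88, and 1.05 without *Ccnb1*-0 cell 13) and *Zwint* (-0.32) were the lowest. Of 19 APC/C substrates 18 were higher and 1 was lower, with a median of 5.21, or 5.87 with a gene lacking reads at its bound. That median was 4.60 without cell 16 and 5.84 without *Ccnb1*-0 cell 12, and 17 or 18 genes were higher when each cell was left out in turn. Where any *Ccnb1* above 0 counted as positive the checkpoint and substrate medians were 3.04 and 4.52, with log2(RPM + 1) averaged 1.98 and 3.69, and with pseudocounts of 10 and 0.1 RPM 1.79 and 3.19, and 4.53 and 6.11. Under these settings 6 or 7 of the 9 and 17 or 18 of the 19 genes were higher. Of all genes 16.8%, 14.3%, 9.47% and 19.8% were higher, in the same order of settings. *Cdca3* (7.56) and *Rrm2* (7.10), a subunit of ribonucleotide reductase, had the highest ratios with the pseudocount, and *Nek2*, named after its values were seen and without a read in *Ccnb1*-0 cells, was at least 625-fold higher, and at least 413-fold higher without cell 40. *Skp2* (1.24) and *Sgol1* (-1.27) were lowest and rested on single cells: *Skp2* was -2.62 without *Ccnb1*-positive cell 96 and 3.91 without *Ccnb1*-0 cell 39, and *Sgol1* was 0.15 without *Ccnb1*-0 cell 65. *Sgol1* was 0.75 when cells with any *Ins1* were used.

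Genes downstream of the ligase and those of other ubiquitin ligases had medians closer to that of the core subunits by mean RPM. When log2(RPM + 1) was averaged, 14.3% of all genes were higher by 2-fold or more. So were 4 of 8 genes of separase and cohesin (median 1.36) and 6 of 13 of the phosphatases (median 0.996). Of the 12 genes of the SCF ligase and other ubiquitin enzymes 3 were then higher and 0 were lower, with a median of 0.28. Of 8 genes of separase and cohesin, 1 was higher, beside 18.2% of all genes, with a median of 0.26. Without single cells 0 to 3 were higher, and the median ran from -0.22, without cell 17, to 0.58, without *Ccnb1*-0 cell 11. Where cells with any *Ins1* were used 3 of 8 were higher. The 1 gene of the main count was separase itself (*Espl1*, 2.56, and -0.0090 without cell 17). *Smc3* (0.93, and 1.09 without *Ccnb1*-0 cell 11) came next, and *Stag1* (-0.39, and 0.11 without *Ccnb1*-0 cell 29) and *Pds5a* (-0.66, with -1.39 without cell 31 and 0.32 with *Ins1* of 10000 RPM or more) were lowest. Of 13 phosphatases of mitotic exit and their regulators 2 were higher, near the 18.2% of all genes, with a median of 0.17. These were *Mastl* (4.28, and 7.37 without *Ccnb1*-0 cell 26) and *Ppp2cb* (1.09, and 0.60 without cell 16). *Mastl* encodes the Greatwall kinase, a regulator and not a phosphatase. *Cdc14a* (-0.34, with -1.10 without cell 40 and 0.69 without *Ccnb1*-0 cell 46) and *Ppp1cb* (-0.20, and 0.43 where cells with any *Ins1* were used) were lowest. Of 12 genes of the SCF ligase and other ubiquitin enzymes none was higher and 1 was lower, beside 18.2% and 25.2% of all genes. The median of this list was 0.16. *Cul1* (0.89, with 1.06 without *Ccnb1*-0 cell 79, 0.25 without cell 31 and 0.22 without second-hormone cells) and *Psmd14* (0.84) were highest, *Ube2d3* (-0.08, and 0.06 without cell 25) and *Btrc* (-1.09) lowest, and *Btrc* was -3.44 without *Ccnb1*-positive cell 25, -0.66 without *Ccnb1*-0 cell 10 and 0.34 where any *Ccnb1* above 0 counted as positive.

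Of the 24 genes named from these lists by rank, 7 kept their sign and their side of 2-fold under every alternative setting, *Anapc15*, *Bub1*, *Bub1b*, *Zwint*, *Cdca3*, *Rrm2* and *Mastl*, and the other 17 did not.

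In the comparison of treatments over *Ccnb1*-0 cells, 12 of the 19 substrates were higher by 2-fold or more and 1 was lower, beside 9.53% and 21.7% of all genes, with a median of 1.29. Without single cells the count ran from 9 to 13 and the median from 0.75, without GNF4877 cell 26, to 1.51. Of the 9 checkpoint genes 4 were higher and 1 was lower, with a median of 0.98, and without single cells the count ran from 2 to 5 and the median from 0.31, without GNF4877 cell 26, to 1.08. These counts depended on the scale. When log2(RPM + 1) was averaged over cells, 0 of the 19 substrates and 0 of the 9 checkpoint genes were higher by 2-fold or more, with medians of 0.15 and 0.14, beside 1.23% of all genes, and with a pseudocount of 10 RPM 1 and 0 were, with medians of 0.27 and 0.26, beside 3.06%. With a pseudocount of 0.1 RPM 12 substrates and 6 checkpoint genes were higher, beside 11.5% of all genes. At this setting 3 substrates and 1 checkpoint gene were lower, beside 24.9%, and the substrate median was 1.91. None of the 9 other APC/C subunits was higher and 2 were lower, with a median of -0.27, and -0.60 without GNF4877 cell 56. The separase, phosphatase and SCF lists had medians of 0.10, -0.05 and -0.09. With the averaging the 4 lists had medians of -1.03, -1.34, -0.98 and -0.43, and 5 of 9, 6 of 8, 6 of 13 and 4 of 12 genes were lower by 2-fold or more, beside 25.6% of all genes.

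Markers of islet and other cell types were read in the same cells. Values are given for *Ccnb1*-positive GNF4877, *Ccnb1*-0 GNF4877 and *Ccnb1*-0 DMSO cells. The 7 β-cell markers measured of 8 listed summed to means of 80127, 40753 and 66868 RPM, led by *Ins1*. Without the highest cell of each group, GNF4877 cells 78 and 43 and DMSO cell 6, they summed to 54001, 39027 and 64210 RPM. The first sum was then below the last. *Mafa* was at 0 in both GNF4877 groups, in DMSO cell 46 and in the DMSO cells that were not Ins1-high. In the *Ccnb1*-0 DMSO cells, where *Mafa* had reads, 6 of the 7 markers reached a mean of 1 RPM. The α-cell hormone gene *Gcg* had means of 3434, 98.3 and 44631 RPM, the first of which was 76.5 RPM without cell 31, and *Irx2*, another α-cell marker, was at 0 in both GNF4877 groups. The PP-cell marker *Ppy* was at 7.13, 1042 and 2461 RPM, with 2.45 RPM in place of 7.13 without cell 31, 3.66 RPM in place of 1042 without GNF4877 cell 50 and 1028 RPM in place of 2461 without DMSO cell 42. The 3 δ-cell markers summed to 14.04, 14.6 and 107 RPM, or to 1.35, 8.75 and 31.8 RPM without GNF4877 cells 31 and 50 and DMSO cell 37, the highest of each group. They were led by *Rbp4* in the first group, where *Hhex* was at 0, and by *Sst* in the others. Another islet hormone gene, that is *Gcg*, *Sst* or *Ppy*, reached 1000 RPM in 1 of 11 (cell 31), 1 of 40 and 25 of 77 cells. Without such cells the non-core median of *Ccnb1*-positive over *Ccnb1*-0 GNF4877 cells was 4.29 and the core median 0.58, while *Cdc27*, at 1.06, passed 2-fold, so that 1 of 4 core subunits was then higher. In the comparison of treatments the non-core median turned from -0.30 to 0.19, and *Ube2c*, at 1.23, passed 2-fold.

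Means of markers from outside the endocrine islet were low apart from *Krt7*, *Cd74* and, through DMSO cell 24, the mesenchymal markers. The 3 duct markers summed to 155, 240 and 168 RPM in the same order of groups, mostly *Krt7*, with *Sox9* at 0 in the first group, whose sum was 102.1 RPM without cell 19. The 3 immune markers summed to 82.4, 68.1 and 10.6 RPM, mostly *Cd74*, with *Cd68* at 0 in the first group, and to 29.1, 44.7 and 5.29 RPM without GNF4877 cells 63 and 46 and DMSO cell 30. The 4 mesenchymal markers, led by *Col1a1*, summed to 0.324, 0.300 and 92.3 RPM, with *Col3a1* at 0 in the first group. The last value was 1.01 RPM without DMSO cell 24, which held 7034 RPM of them and 41.4 RPM of *Cdc20*. The 4 acinar markers, led by *Cela1*, summed to 0.418, 0 and 1.86 RPM, only *Cela1* having reads in the first group, in cell 25 alone, and the last value was 0.934 RPM without DMSO cell 37. The 3 endothelial markers summed to 4.95, 0 and 1.91 RPM, *Pecam1* alone in the first group and *Cdh5* alone in DMSO, each in 1 cell, GNF4877 cell 78 and DMSO cell 6. The part of these cell types and of depth in the results was not tested.

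Promoters are shown for members that moved together and for a core subunit that did not. Of the 10 members, 8 matched an entry of the RefSeq promoter table by symbol (GRCr8), and *Ube2c* and *Cdc16* did not. The 250 bases before each start were searched on both strands for the cell cycle homology region in its common forms TTTGAA and TTTAAA and for the CCAAT box, letters that can overlap only at their ends. Of 33469 promoters, 25.4% held TTTGAA or TTTAAA, 34.02% held CCAAT and 9.42% held 2 or more CCAAT. *Cdc20* and *Pttg1*, as well as *Ccnb1*, held 1 of the region's forms near the start, TTTGAA for the members and TTTAAA for *Ccnb1*, and *Cdc23* held TTTAAA farther away. *Fbxo5* and *Pttg1* held 3 CCAAT each, *Cdc20*, *Cdc27*, *Anapc5* and *Ccnb1* held 2, *Ube2s* and *Cdc23* held 1 and *Fzr1* held none, so CCAAT did not part the sets. The 150 bases before the start follow for *Cdc20* (chr5:137255800-137255949, minus strand), *Pttg1* (chr10:28406327-28406476, minus strand, with its farthest CCAAT outside the stretch), *Fbxo5* (chr1:44607782-44607931, minus strand), *Ccnb1* (chr2:33655226-33655375, minus strand) and the core subunit *Anapc5* (chr12:39409369-39409518, plus strand), with matches in capitals, where ATTGG and TTCAAA are the reverse strand forms. A match is a description of letters and not a shown binding site.
Cdc20: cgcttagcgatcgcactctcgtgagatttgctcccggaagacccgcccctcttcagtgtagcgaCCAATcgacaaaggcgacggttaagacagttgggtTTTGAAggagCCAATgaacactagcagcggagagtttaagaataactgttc
Pttg1: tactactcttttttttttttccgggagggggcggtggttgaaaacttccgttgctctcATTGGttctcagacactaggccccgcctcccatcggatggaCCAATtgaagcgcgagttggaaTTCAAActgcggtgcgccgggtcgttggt
Fbxo5: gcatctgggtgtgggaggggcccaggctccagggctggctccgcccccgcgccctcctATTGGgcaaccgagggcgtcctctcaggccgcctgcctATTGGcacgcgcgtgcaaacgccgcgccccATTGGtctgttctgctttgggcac
Ccnb1: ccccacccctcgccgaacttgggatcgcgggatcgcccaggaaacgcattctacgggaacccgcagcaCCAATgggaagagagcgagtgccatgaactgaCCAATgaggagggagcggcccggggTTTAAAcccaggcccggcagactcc
Anapc5: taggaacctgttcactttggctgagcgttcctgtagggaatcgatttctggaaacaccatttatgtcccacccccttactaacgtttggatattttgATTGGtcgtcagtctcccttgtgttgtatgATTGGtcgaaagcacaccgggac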

How the data were processed

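The authors aligned single 50 bp reads of each cell and deposited RPM, reads of a transcript per 1000000 mapped reads, for 27586 rat transcripts and 170 cells. The methods name a mouse transcriptome while the transcripts listed are rat RefSeq entries. The submitters' processing notes name CASAVA 1.8.2, BWA 0.5.9 and SAMtools 0.1.19. The floor value of 0.01, which stands for no read, was set to 0, and rows of a symbol were summed. Whole reads came from the smallest step of each cell: 100% of low values, up to 20 reads, were whole to within 0.1. By accession, 10 of the 10 members matched the GRCr8 gene table. No pair of cells had identical values. Ins1-high means *Ins1* of 1000 RPM or more. Ratios used a pseudocount of 1 RPM, called means 2-fold or more, and genes under a mean of 1 RPM in both groups were left out of the background. Where a gene had no read, the fold was taken against a floor of 3 reads summed over the cells. Thinning to 100000 reads on listed genes left out 2 *Ccnb1*-0 DMSO cells and 1 *Ccnb1*-0 GNF4877 cell. The methods state that ports were inspected by microscopy and used where 1 cell was seen, and no doublet caller was run here.

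Members and lists were chosen with earlier results of these data known. The genes named were the 10 members, *Ccnb1* and *Ins1*, the 2 highest and 2 lowest ratios of each list, and the 5 genes most correlated with *Cdc20* and with *Cdc27* among genes read in 10 or more Ins1-high GNF4877 cells. Some marker and correlated genes are not reported here. Alternatives varied the *Ins1* and *Ccnb1* thresholds, pseudocount, averaging, rows, scale, depth, low-value filter, second-hormone cells and single cells. Leaving out cells with under 500000 RPM on listed transcripts, all alternatives for list genes and lists, and the values without the top cell for the *Fbxo5* and *Nek2* bounds and the marker levels, were added after the data were seen. The ratio step was tested on simulated data with counting error only and without genes of low mean. That test does not cover ratios of genes with few reads or ratios that rest on single cells. Promoter sequences are from RefSeq, GRCr8. Figures were drawn with matplotlib 3.10.9, and values were computed with scipy 1.17.1, pandas 2.3.3 and numpy 2.4.6 under Python 3.11.15.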

Additional observations from a re-analysis of the deposited data

Results flagged for a closer look

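Cells that were not Ins1-high enter only the alternative with any *Ins1* above 0, and 3 such GNF4877 cells passed 10 RPM of *Ccnb1*, and all 3 held *Cdc20* above every DMSO cell of that kind. The highest *Cdc20* among the 8 DMSO cells that were not Ins1-high was 154 RPM, in cell 29, which had no *Ccnb1* read and 45020 RPM of *Ppy*, and whose 4 mesenchymal markers summed to 5128 RPM. *Cdc20* was 857 RPM in GNF4877 cell 15, whose *Gcg* was 50.99 RPM and *Sst* 1.08 RPM and whose 4 mesenchymal markers summed to 12620 RPM, 348 RPM in cell 20, with 357885 RPM of *Gcg*, and 643 RPM in cell 49, with 35288 RPM of *Sst*. *Ube2c* was 464, 377 and 99.0 RPM, *Fbxo5* 92.8, 33.6 and 29.2 RPM and *Pttg1* 51.5, 118 and 88.8 RPM in the same order, and *Anapc5* was 357, 237 and 249 RPM. *Fzr1* was 1.63 RPM in cell 15 and had no read in the others. The cells thus held 4 or 5 of the 6 non-core genes at 10 RPM or more. Each differs in its hormones and there is 1 cell of each kind.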

How the results depend on the processing

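No paired analysis was possible because the cell numbers are ports of separate chips, with 1 sample per treatment. From *Ccnb1*-0 to *Ccnb1*-positive GNF4877 cells the non-core median was above the core median under the alternatives run, leaving aside the filter on genes read in few cells, which most non-core genes pass only through the *Ccnb1*-positive cells. The non-core median of 4.19 became 5.42 with a pseudocount of 0.1 RPM, 2.25 with 10 RPM and 2.74 when log2(RPM + 1) was averaged over cells, and ran from 3.64 to 4.68 when single cells were left out. The core median in the comparison of treatments moved from -0.03 to -0.98 when log2(RPM + 1) was averaged over cells. The other 50 of 54 alternatives of the 4 medians moved by less than 1.5-fold, but the non-core median between treatments, -0.30, lay on either side of 0 among them (-0.85 to 0.19, and 0.22 with that filter, which kept 1 gene, *Ube2s*). Of 250 alternatives for single members 189 moved by less than 1.5-fold, 59 moved by more and 2 turned a ratio past 2-fold: *Fzr1* (-1.22 to 4.53 without single cells), and *Cdc20* between treatments, from -1.16 to 0.070 with that averaging. Of 312 for list genes 6 did so: *Anapc1* (0.61) and *Sgol1* (0.75) with any *Ins1* above 0, *Btrc* (0.34) with any *Ccnb1* above 0, and, without single cells, *Skp2* (-2.62 to 3.91), *Sgol1* (-1.42 to 0.15) and *Espl1* (-0.0090 to 2.67). The cause was not tested. Of 150 alternatives for shares 20 fell outside the interval, all from a minimum of 10 RPM or thinning.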
